A study of Mus musculus with 12 samples.

Results

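The Wnt family members described here are the Wnt ligands, their Frizzled receptors and Lrp5 and Lrp6 co-receptors, the secreted antagonists of the Sfrp and Dkk families, and the target and inhibitor Axin2. They were chosen by gene symbol alone, which gave 40 of the 21881 genes of the deposited table: 19 ligands, 10 Frizzled receptors, 2 co-receptors, 8 antagonists and Axin2. The cells are immortalized lines of mouse mesenchymal stem cells (strain C57BL/6), fibroblast-like cells of adult bone marrow, and their polyadenylated RNA was sequenced in 4 groups with 3 libraries each. KO_let-7g cells lacked Dicer1 (Dicer -/-) and received a synthetic let-7g siRNA duplex. KO_siNr6a1 cells lacked Dicer1 and received an siRNA against Nr6a1. KO_siCtrl cells lacked Dicer1 and received a nontargeting control siRNA, and WT_siCtrl cells carried intact floxed alleles (Dicer f/f) and received the same control siRNA. All siRNAs were given at 20 nM for 48 h. Each line grew from a single cell, and the labels give neither the number of lines per genotype nor whether the libraries of a group came from separate cultures. Genotype and line therefore cannot be told apart. The p-values reflect the spread among these libraries alone, and that spread may be technical.

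Wnt proteins are secreted lipid-modified signals that bind a Frizzled receptor together with Lrp5 or Lrp6. In the canonical branch this binding stabilises beta-catenin, which enters the nucleus and switches on genes such as Axin2, itself a brake on the pathway. Other Wnts, typified by Wnt5a, act without beta-catenin on cell polarity and movement. Sfrp proteins resemble the Wnt-binding part of Frizzled and bind Wnts outside the cell, while the classical Dkk proteins block Lrp5 and Lrp6. In bone marrow stroma the canonical branch is known for favouring bone formation over fat formation.

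Levels are FPKM (fragment counts divided by transcript length and by the number of mapped fragments), so levels of different genes can be set side by side. How many reads a library holds is unknown, and depth relative to the shallowest library (set to 1) was 1.34 to 1.82 in KO_let-7g, 1.13 to 1.57 in KO_siNr6a1, 1 to 1.31 in KO_siCtrl and 1.11 to 1.29 in WT_siCtrl. Dicer1, the deleted gene, was at 2.7 ± 0.29 FPKM in KO_let-7g, 3.15 ± 0.392 in KO_siNr6a1, 3.86 ± 0.214 in KO_siCtrl and 6.58 ± 1.45 in WT_siCtrl. The table holds 1 value per gene, which does not show whether the floxed part is gone. Nr6a1, an orphan nuclear receptor and the siRNA target, was at 4.22 ± 1.04 FPKM in KO_let-7g, 3.68 ± 0.539 in KO_siNr6a1, 11.7 ± 1.32 in KO_siCtrl and 1.12 ± 0.158 in WT_siCtrl. Of 12 markers listed for the labelled cells, 10 had an FPKM of at least 1 in every library of every group, among them Cd44, Itgb1 and Vim. The stromal marker Thy1 was listed at 0 or under 0.01 FPKM in every library, and Lepr was below 1 FPKM. The summed level of 4 endothelial markers was at most 0.272 FPKM in any library. That of 4 epithelial markers was 0.499 to 0.94 FPKM in KO_let-7g, 0.351 to 0.478 in KO_siNr6a1, 1.04 to 1.67 in KO_siCtrl and 0.168 to 0.327 in WT_siCtrl. Among them the keratin gene Krt8 was at 0.931 to 1.55 FPKM in KO_siCtrl and 0.047 to 0.163 in WT_siCtrl, and the defining marker Epcam was at most 0.126 in any library. The summed level of 6 blood markers was 4.45 to 6.88 FPKM in KO_let-7g, 1.61 to 1.84 in KO_siNr6a1, 1.44 to 2.41 in KO_siCtrl and 1.4 to 1.97 in WT_siCtrl. Only the macrophage marker Cd68 of that list passed 1 FPKM, the pan-leukocyte marker Ptprc was at most 0.0177 FPKM, and the part of blood or epithelial cells in the results was not tested. Of the members described at length, Axin2, Fzd5, Fzd6, Sfrp2, Wnt5a and Wnt7b share exon bases with a gene annotated on the other strand. The sources used here do not say whether counting used the strand.

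The let-7g duplex is one of the treatments, so the sequence it acts through is shown here with the matches found in the members. The mature mouse let-7g strand from RefSeq, with bases 2 to 8 (the seed) in capitals, reads as follows.
let-7g-5p: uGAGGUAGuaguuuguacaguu
A target site pairs with the seed, so the 3′ UTR of the longest annotated coding transcript of each gene was searched on the transcript strand for the 7-base matches CTACCTC (7mer-m8) and, one base further on, TACCTCA (7mer-A1). The 8mer CTACCTCA holds both and was counted once. Of the 40 members, 11 held at least 1 match (27.5%) and 7 an 8mer (17.5%), against 15.3% and 3.14% of the 17922 genes of the table with a 3′ UTR. The members had longer 3′ UTRs, with a median of 1841 bases against 1000, and a longer one has more room for a match. Among members that exceeded 0.35 FPKM in any library, the matches were the following. Each is printed from 5′ to 3′ with the match in capitals and placed on mouse build GRCm38.
Dkk3, 8mer starting at base 470 of a 3′ UTR of 2194 bases, chr7:112117730-112117757, minus strand: ccctgtgtttcagctcCTACCTCActgt
Fzd4, 8mer starting at base 4343 of a 3′ UTR of 4774 bases, chr7:89412687-89412714, plus strand: cacttctgagtttcttCTACCTCAcaga
Fzd3, 8mer starting at base 1840 of a 3′ UTR of 10270 bases, chr14:65200868-65200895, minus strand: tgaatatctcctctacCTACCTCAcaaa
Wnt9a, 8mer starting at base 2045 of a 3′ UTR of 2177 bases, chr11:59333404-59333431, plus strand: gcagcctgtgatttctCTACCTCAactg
Lrp6, 7mer-A1 starting at base 2863 of a 3′ UTR of 4310 bases, chr6:134447913-134447940, minus strand: ttcatagctgtgttagtTACCTCAccag
The other matches lay in Dkk4, Wnt1, Wnt3a, Wnt9b, Wnt10a and Wnt16, all of which stayed below 0.35 FPKM in every library. Of these, Wnt10a has a call in KO_let-7g given below, and its match is a 7mer-m8 starting at base 293 of a 3′ UTR of 559 bases. A match describes the letters in this window and is not shown to be a site in use.

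The filter for testing, 1 FPKM or more in 3 or more libraries, was met by 18 of the 40 members. They were 5 of 19 ligands (Wnt4, Wnt5a, Wnt5b, Wnt7b and Wnt10b), 7 of 10 Frizzled receptors (all but Fzd3, Fzd9 and Fzd10), both co-receptors, and 4 of 8 antagonists (Sfrp1, Sfrp2, Sfrp4 and Dkk3). Axin2 did not pass. Members with at least 1 FPKM in each of a group's 3 libraries numbered 15 in KO_let-7g, 15 in KO_siNr6a1, 16 in KO_siCtrl and 17 in WT_siCtrl. The members nearest the filter were Fzd4 and Wnt7b inside it, with Wnt7b passing through the 3 KO_siCtrl libraries alone (1.63 to 3.57 FPKM) and Fzd4 only with the help of the 3 WT_siCtrl libraries, and Fzd9 (highest library 0.995 FPKM) and Wnt2b (0.873) outside it. Of the 22 members below the filter, 13 stayed under 0.1 FPKM in every library: Dkk1, Dkk2, Dkk4, Fzd10, Sfrp5, Wnt2, Wnt3, Wnt3a, Wnt7a, Wnt8a, Wnt8b, Wnt9b and Wnt16, of which Wnt16 was listed at 0 in 11 of 12 libraries. Since the cells are measured in bulk, fewer cells with a transcript and less transcript per cell cannot be told apart in any value below.

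**Figure D1:**
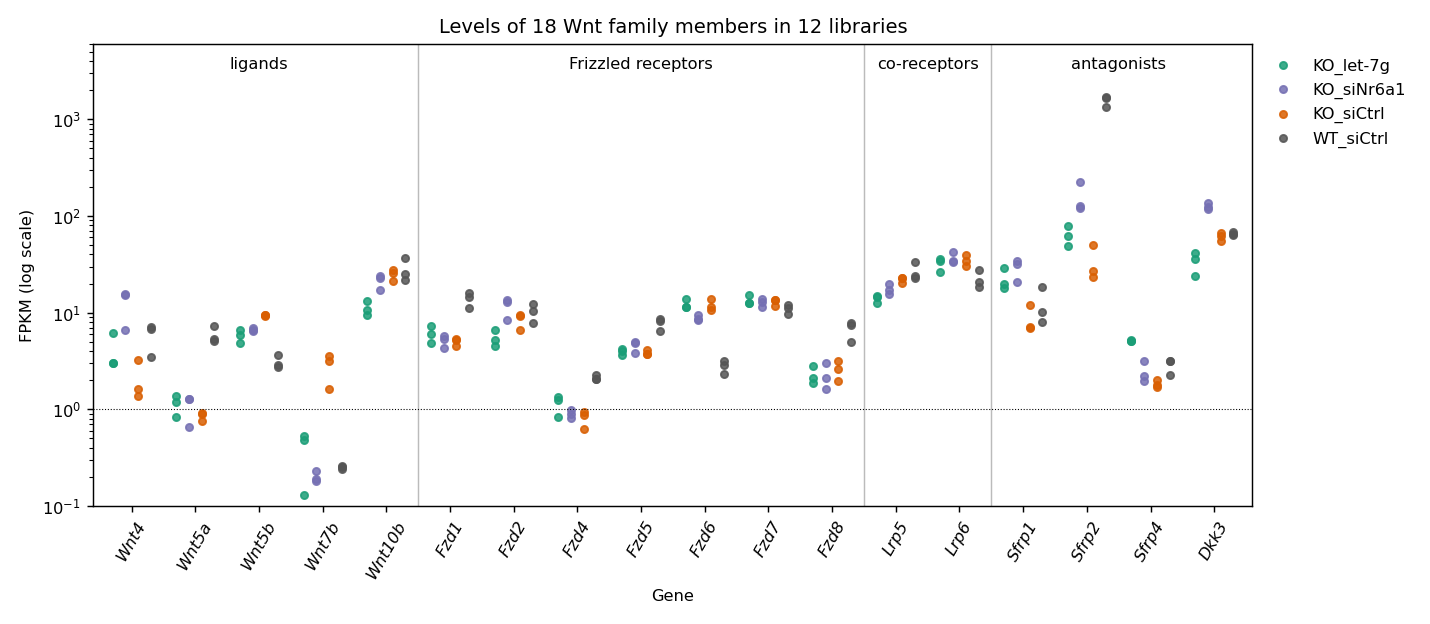
FPKM (log scale) of the 18 members that passed the filter, by gene, with 1 point per library and the 4 groups side by side in each column. The dotted line marks 1 FPKM. Sfrp2 spans the widest range, from 23.4 FPKM in a KO_siCtrl library to 1717 FPKM in a WT_siCtrl library, while Fzd7 lies between 9.8 and 15.3 FPKM in all 12.

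Ligands, receptors and antagonists changed in each of the comparisons of KO_siCtrl, KO_let-7g and KO_siNr6a1. Relative to WT_siCtrl, KO_siCtrl cells had less Sfrp2, Wnt5a and Fzd1 and more Fzd6, Wnt5b and Wnt7b. Relative to KO_siCtrl, Wnt5b and Wnt7b fell and Sfrp1 and Sfrp2 rose in both KO_let-7g and KO_siNr6a1, while Dkk3 fell in KO_let-7g and rose in KO_siNr6a1. Wnt10b, Lrp5 and Fzd2 fell and Sfrp4 rose in KO_let-7g, and Wnt4 rose and Fzd6 fell in KO_siNr6a1. In the fit with the replicate number as a block, Wnt4 also rose in KO_let-7g (adjusted p = 0.0131) and Fzd2 rose in KO_siNr6a1 (0.00879). For Wnt10b, Fzd2, Sfrp4, Wnt4 and Fzd6 the difference between the treatments was itself called. For Lrp5 it was not called as reported and was called in 4 of 24 alternative settings. The KO_let-7g calls of Fzd2 and Sfrp2 and the KO_siNr6a1 call of Fzd6 were each lost in several alternative settings, named with the gene. Wnt7b entered the test through the KO_siCtrl libraries alone, so it had to differ between KO_siCtrl and the other groups.

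In KO_siCtrl against WT_siCtrl, 12 of the 18 members tested were called (66.7%), 4 higher and 8 lower, where 54.3% of the 11801 genes tested were called (29.1% higher and 25.2% lower). Called means an adjusted p under 0.05 from limma with Benjamini-Hochberg adjustment over all genes tested, and log2 changes are fold changes of FPKM + 1 with their SE. In KO_let-7g against KO_siCtrl, 9 of the 18 members tested were called (50%), 3 higher and 6 lower, against 45.6% of all genes (27.5% higher and 18.2% lower). In KO_siNr6a1 against KO_siCtrl, 7 of the 18 members tested were called (38.9%), 4 higher and 3 lower, against 29.4% (13.2% higher and 16.3% lower). In KO_let-7g against KO_siNr6a1, 7 of the 18 members tested were called (38.9%), 2 higher and 5 lower, against 40.9% (27.6% higher and 13.3% lower). Set against WT_siCtrl, 15 of the 18 members tested were called (83.3%), 5 higher and 10 lower in KO_let-7g, where 58.2% of all genes were called (35.3% higher and 22.8% lower). In KO_siNr6a1 against WT_siCtrl, 13 of the 18 members tested were called (72.2%), 6 higher and 7 lower, against 54.3% of all genes (27% higher and 27.4% lower). The members' median log2 fold change was -0.32 (all genes 0.04) in KO_siCtrl against WT_siCtrl, 0.03 (all genes 0.08) in KO_let-7g against KO_siCtrl, 0.07 (all genes -0.06) in KO_siNr6a1 against KO_siCtrl and -0.17 (all genes 0.12) in KO_let-7g against KO_siNr6a1, each beside the median of all genes tested. Some members entered the test through the group where they are high, so these shares are no property of the family. The comparisons of either treatment with KO_siCtrl share the KO_siCtrl libraries.

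Scaling by quantiles or by medians of ratios lowered the median log2 change of all genes in KO_let-7g against each of the other groups, and upper quartiles lowered it against KO_siNr6a1 and WT_siCtrl but not against KO_siCtrl. In KO_let-7g against KO_siNr6a1 the median of all genes was 0.12 as deposited, 0.02 with quantiles, 0.11 with upper quartiles and -0.01 with medians of ratios, and 2 members were called higher and 5 lower as deposited and with upper quartiles, 1 and 8 with quantiles and 1 and 7 with medians of ratios. Over all genes the higher share of the calls in that comparison was 67.6% as deposited, 51.9% with quantiles, 65% with upper quartiles and 45.1% with medians of ratios. In KO_let-7g against WT_siCtrl 5 members were called higher and 10 lower as deposited and 3 and 10 with medians of ratios, with a median of all genes of 0.12 and -0.01. The higher share over all genes there was 60.7% as deposited, 53.8% with quantiles, 53.9% with upper quartiles and 48% with medians of ratios. In KO_let-7g against KO_siCtrl that share was 60.2% as deposited, 49.9% with quantiles, 61.7% with upper quartiles and 49.3% with medians of ratios. In KO_siNr6a1 against KO_siCtrl it was 44.8% as deposited, 49.8% with quantiles, 50.5% with upper quartiles and 56.3% with medians of ratios. For KO_siCtrl against WT_siCtrl it was 53.6% as deposited (3439 higher and 2974 lower), 53.8% with quantiles, 45% with upper quartiles (2791 and 3412) and 49.3% with medians of ratios, so the side with more calls depended on the scaling.

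**Figure D2:**
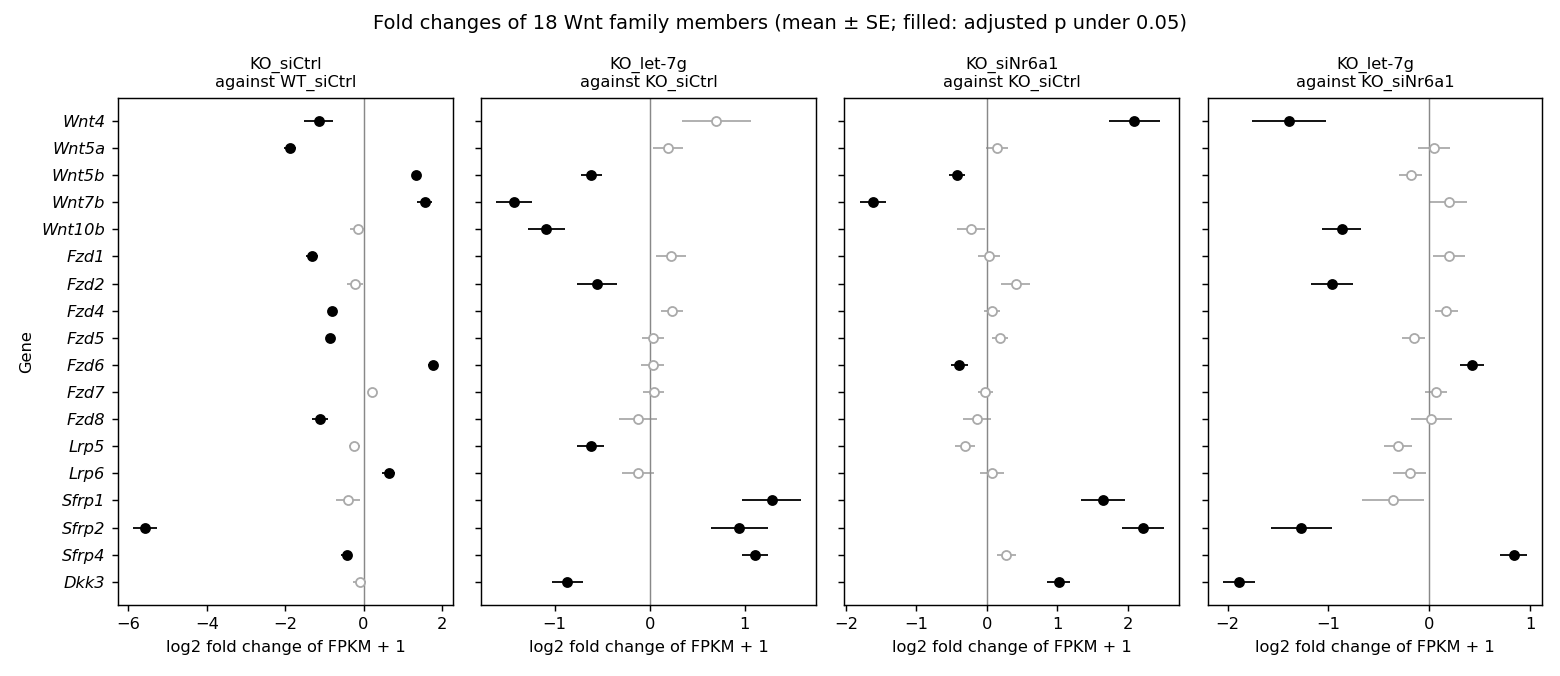
Log2 fold changes on the FPKM + 1 scale (horizontal axis, estimate ± SE, first-named group over the second) of the 18 members in 4 comparisons, with 3 libraries per group. Filled points have an adjusted p under 0.05. The horizontal scale differs between panels, and Sfrp2 at -5.58 in KO_siCtrl against WT_siCtrl is the largest change.

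Wnt10b, a canonical ligand known for favouring bone over fat in marrow, was the most abundant ligand in every library. It stood at 9.56, 13.2 and 10.6 FPKM in KO_let-7g, 17, 22.6 and 23.9 in KO_siNr6a1, 21.4, 25.5 and 27.3 in KO_siCtrl and 21.9, 25.3 and 36.9 in WT_siCtrl. Every KO_let-7g library was below every library of the other groups, which overlapped among themselves. Wnt10b fell in KO_let-7g against KO_siCtrl (log2 change -1.09 ± 0.19, adjusted p = 0.000916) and was lower in KO_let-7g than in KO_siNr6a1 (log2 change -0.87 ± 0.19, adjusted p = 0.00458). Between KO_siCtrl and WT_siCtrl the difference of -0.15 did not pass the test (adjusted p = 0.547). KO_let-7g was also lower than WT_siCtrl (log2 change -1.24 ± 0.19, adjusted p = 0.000246), while the difference of -0.37 in KO_siNr6a1 against WT_siCtrl was not called (adjusted p = 0.125), though it was without WT_siCtrl replicate 0 (0.0445).

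Wnt5b and Wnt7b were higher without Dicer1 and lower again under both treatments. Wnt5b, a mainly noncanonical ligand of cartilage and fat development, stood at 6.58, 4.91 and 5.94 FPKM in KO_let-7g, 6.66, 6.98 and 6.46 in KO_siNr6a1, 9.38, 9.24 and 9.47 in KO_siCtrl and 2.89, 2.74 and 3.68 in WT_siCtrl. The KO_siCtrl libraries were the highest and the WT_siCtrl libraries the lowest, with no overlap. Wnt5b rose in KO_siCtrl against WT_siCtrl (log2 change 1.34 ± 0.11, adjusted p = 2.41e-06). Relative to KO_siCtrl it fell in KO_let-7g (log2 change -0.61 ± 0.11, adjusted p = 0.00107) and in KO_siNr6a1 (log2 change -0.43 ± 0.11, adjusted p = 0.0144), the last a call lost without KO_siNr6a1 replicate 2 (adjusted p = 0.0525). Wnt7b, a ligand of bone-forming cells and of lung and kidney development, stood at 0.484, 0.13 and 0.536 FPKM in KO_let-7g, 0.23, 0.189 and 0.181 in KO_siNr6a1, 3.17, 1.63 and 3.57 in KO_siCtrl and 0.251, 0.242 and 0.26 in WT_siCtrl. Only the KO_siCtrl libraries exceeded 1 FPKM, and they did not overlap with any other group. Wnt7b had the same calls, with a rise in KO_siCtrl against WT_siCtrl (log2 change 1.56 ± 0.19, adjusted p = 3.76e-05) and falls relative to KO_siCtrl in KO_let-7g (log2 change -1.43 ± 0.19, adjusted p = 0.000118) and in KO_siNr6a1 (log2 change -1.62 ± 0.19, adjusted p = 0.000151). Neither treated group differed from WT_siCtrl in Wnt7b by a call (adjusted p = 0.569 for KO_let-7g and 0.806 for KO_siNr6a1). A pseudocount of 0.1 in place of 1 gave log2 changes of 2.97, -2.64 and -3.20 for these 3 comparisons in the order given. Since Wnt7b entered the test through its high group, these calls describe a gene that had to differ.

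Wnt5a and Wnt4 fell in KO_siCtrl against WT_siCtrl, and Wnt4 rose in KO_siNr6a1 to the highest mean of the 4 groups, with libraries that overlapped those of WT_siCtrl. Wnt5a, the standard noncanonical ligand, stood at 0.835, 1.38 and 1.2 FPKM in KO_let-7g, 0.657, 1.27 and 1.29 in KO_siNr6a1, 0.754, 0.901 and 0.914 in KO_siCtrl and 5.4, 7.24 and 5.06 in WT_siCtrl. All 9 libraries without Dicer1 lay below the 3 with it. It fell in KO_siCtrl against WT_siCtrl (log2 change -1.88 ± 0.16, adjusted p = 2.82e-06), and the differences of 0.20 in KO_let-7g and 0.15 in KO_siNr6a1 against KO_siCtrl did not pass (adjusted p = 0.343 and 0.536). Wnt4, a ligand of kidney, gonad and muscle development, stood at 3, 6.14 and 3 FPKM in KO_let-7g, 6.6, 15.2 and 15.6 in KO_siNr6a1, 1.36, 3.27 and 1.62 in KO_siCtrl and 3.52, 7.04 and 6.81 in WT_siCtrl. The KO_siNr6a1 libraries numbered 1 and 2 were the highest of the 12, and the library numbered 0 was the lowest of its group in 3 of the 4 groups, the KO_let-7g libraries 0 and 2 being nearly level. Wnt4 fell in KO_siCtrl against WT_siCtrl (log2 change -1.14 ± 0.37, adjusted p = 0.0207) and rose in KO_siNr6a1 against KO_siCtrl (log2 change 2.09 ± 0.37, adjusted p = 0.00176). The difference of 0.70 in KO_let-7g against KO_siCtrl was not called (adjusted p = 0.141) but was with the replicate number as a block (adjusted p = 0.0131). KO_let-7g was lower than KO_siNr6a1 in Wnt4 (log2 change -1.39 ± 0.37, adjusted p = 0.0111). The genotype call did not hold when KO_siCtrl replicate 0 was left out (adjusted p = 0.0735) or 2 (0.0624), or WT_siCtrl replicate 1 (0.0745) or 2 (0.0676).

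The sum over the 19 ligands was 25.1 ± 2.9 FPKM in KO_let-7g, 43.8 ± 9.01 in KO_siNr6a1, 41.7 ± 3.72 in KO_siCtrl and 44.3 ± 9.51 in WT_siCtrl (mean ± SD, n = 3 each). Behind similar sums in KO_siCtrl and WT_siCtrl lay different mixtures. Wnt10b made up 44.1 ± 2.77% of the sum in KO_let-7g, 48.5 ± 2.17% in KO_siNr6a1, 59.2 ± 2.13% in KO_siCtrl and 62.9 ± 5.21% in WT_siCtrl (mean ± SD, n = 3 each, as for the shares that follow). Wnt5b came next in KO_siCtrl with 22.6 ± 2.04%, against 7.11 ± 1.01% in WT_siCtrl. The noncanonical share in WT_siCtrl was instead carried mostly by Wnt5a, with 2.05 ± 0.0688% in KO_siCtrl and 13.8 ± 3.86% in WT_siCtrl. In KO_siNr6a1 Wnt4 held 27.6 ± 6.76%, against 4.98 ± 2.38% in KO_siCtrl. These shares are a description without a test.

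**Figure D3:**
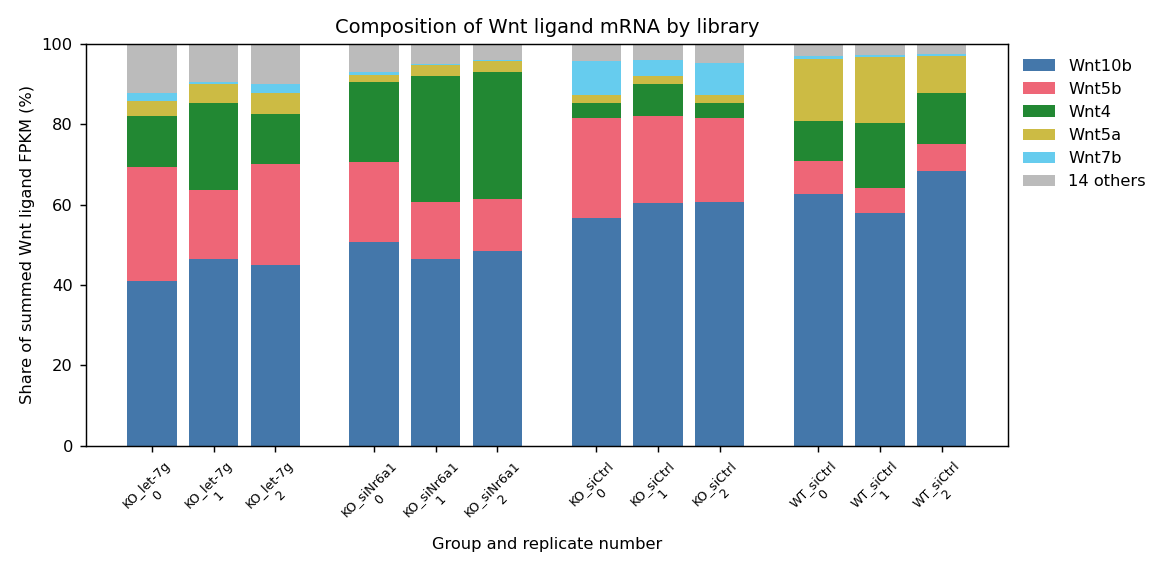
Share of the summed FPKM of all 19 Wnt ligands (percent, vertical axis) taken by the 5 ligands that passed the filter and by the 14 others together, with 1 bar per library. Wnt10b is the largest part of every bar, Wnt7b is visible mainly in KO_siCtrl, Wnt5a mainly in WT_siCtrl, and Wnt4 is on average widest in KO_siNr6a1.

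Among the 14 ligands below the filter, Wnt2b, Wnt6, Wnt9a and Wnt11 came closest to it. Wnt2b stood at 0.795 ± 0.115 FPKM in KO_let-7g, 0.571 ± 0.106 in KO_siNr6a1, 0.507 ± 0.0619 in KO_siCtrl and 0.167 ± 0.116 in WT_siCtrl, and Wnt6 at 0.48 ± 0.108 FPKM in KO_let-7g, 0.482 ± 0.17 in KO_siNr6a1, 0.361 ± 0.0606 in KO_siCtrl and 0.109 ± 0.0725 in WT_siCtrl. Wnt9a, a ligand of joint and limb development, stood at 0.442 ± 0.0734 FPKM in KO_let-7g, 0.36 ± 0.0769 in KO_siNr6a1, 0.15 ± 0.044 in KO_siCtrl and 0.579 ± 0.0862 in WT_siCtrl, and Wnt11 at 0.643 ± 0.243 FPKM in KO_let-7g, 0.482 ± 0.141 in KO_siNr6a1, 0.424 ± 0.123 in KO_siCtrl and 0.265 ± 0.0897 in WT_siCtrl. With the filter lowered to 0.3 FPKM in 3 libraries, which left 12979 genes with 53.4% called in KO_siCtrl against WT_siCtrl, Wnt2b (log2 change 0.37 ± 0.09, adjusted p = 0.00501) and Wnt6 (log2 change 0.30 ± 0.10, adjusted p = 0.0236) rose and Wnt9a (log2 change -0.46 ± 0.08, adjusted p = 0.000385) fell in KO_siCtrl. Against KO_siCtrl, Wnt9a rose under that filter in KO_let-7g (log2 change 0.33 ± 0.08, adjusted p = 0.00482) and in KO_siNr6a1 (log2 change 0.24 ± 0.08, adjusted p = 0.0347), where 44% and 27.7% of genes were called. Its 3′ UTR holds the let-7 8mer shown above. Wnt2b rose in KO_let-7g against KO_siCtrl (log2 change 0.25 ± 0.09, adjusted p = 0.0439). Several pairs of ligands are neighbouring protein-coding genes in RefSeq's GRCm38.p6 annotation, and their levels differ within pairs. Wnt10b lay between 9.56 and 36.9 FPKM while its neighbour Wnt1 stayed at or below 0.251. Wnt9a reached 0.652 FPKM and its neighbour Wnt3a at most 0.00324. In the pair of Wnt6 and Wnt10a the highest levels were 0.601 and 0.343 FPKM, and Wnt9b and Wnt3 were both under 0.1 FPKM.

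The Frizzled receptors shifted from Fzd1, Fzd5 and Fzd8 towards Fzd6 in cells without Dicer1, and the treatments moved few of them. Fzd6, a receptor linked to planar cell polarity and able to restrain canonical signalling, stood at 13.8, 11.4 and 11.4 FPKM in KO_let-7g, 9.53, 8.62 and 8.36 in KO_siNr6a1, 13.7, 11.5 and 10.7 in KO_siCtrl and 3.17, 2.34 and 2.9 in WT_siCtrl. All libraries without Dicer1 were above all WT_siCtrl libraries, and every KO_siNr6a1 library was below every library of KO_let-7g and KO_siCtrl. It rose in KO_siCtrl against WT_siCtrl (log2 change 1.77 ± 0.12, adjusted p = 4.97e-07). Its fall in KO_siNr6a1 against KO_siCtrl (log2 change -0.39 ± 0.12, adjusted p = 0.0301) was lost in 8 of 24 settings, including all 3 other scalings (adjusted p = 0.0619 with quantiles, 0.053 with upper quartiles and 0.0689 with medians of ratios) and without KO_siNr6a1 replicate 1 (0.0823) or 2 (0.0973) or KO_siCtrl replicate 0 (0.112) or 1 (0.0559). KO_let-7g was higher than KO_siNr6a1 in Fzd6 (log2 change 0.42 ± 0.12, adjusted p = 0.0158), a call lost with quantiles (0.0986), with medians of ratios (0.106) and without KO_let-7g replicate 0 (0.0673) or KO_siNr6a1 replicate 2 (0.0574).

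Fzd1, a receptor that can signal through beta-catenin, stood at 4.85, 7.21 and 6.08 FPKM in KO_let-7g, 4.35, 5.7 and 5.33 in KO_siNr6a1, 4.47, 5.16 and 5.32 in KO_siCtrl and 11.2, 14.7 and 16 in WT_siCtrl. The receptor Fzd8 stood at 2.12, 2.8 and 1.88 FPKM in KO_let-7g, 1.64, 3.05 and 2.09 in KO_siNr6a1, 1.95, 3.17 and 2.59 in KO_siCtrl and 5.02, 7.9 and 7.5 in WT_siCtrl. For Fzd5 the values were 4.18, 4.04 and 3.64 FPKM in KO_let-7g, 3.85, 4.93 and 4.82 in KO_siNr6a1, 3.7, 4.08 and 3.74 in KO_siCtrl and 6.5, 8.57 and 8.22 in WT_siCtrl. In each of these 3 receptors the WT_siCtrl libraries were all above the 9 libraries without Dicer1, and the 3 groups without Dicer1 overlapped. Fzd4, also the receptor of norrin in blood vessels of the eye, stood at 1.35, 1.26 and 0.83 FPKM in KO_let-7g, 0.981, 0.899 and 0.81 in KO_siNr6a1, 0.945, 0.882 and 0.62 in KO_siCtrl and 2.27, 2.08 and 2.08 in WT_siCtrl, with the same order of genotypes. Against WT_siCtrl, KO_siCtrl was lower in Fzd1 (log2 change -1.31 ± 0.16, adjusted p = 3.7e-05), Fzd8 (log2 change -1.12 ± 0.20, adjusted p = 0.000718), Fzd5 (log2 change -0.85 ± 0.12, adjusted p = 9.94e-05) and Fzd4 (log2 change -0.80 ± 0.11, adjusted p = 0.000134, and -1.31 with a pseudocount of 0.1). None of these 4 was called in KO_let-7g or KO_siNr6a1 against KO_siCtrl (adjusted p from 0.11 to 0.911). Fzd4 met the filter only with the help of the WT_siCtrl libraries, where it is high. Its calls against WT_siCtrl, here and below, are therefore given as a description. With the replicate number as a block, Fzd1 (adjusted p = 0.0442) and Fzd4 (0.0398) were called higher in KO_let-7g against KO_siCtrl, and Fzd4 also with library weights (0.0475) and without KO_let-7g replicate 2 (0.0271). Fzd4, which holds the let-7 8mer shown above, averaged 1.15 ± 0.277 FPKM in KO_let-7g and 0.816 ± 0.172 FPKM in KO_siCtrl.

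Fzd2 and Fzd7 were not called between the genotypes under the control siRNA. Fzd2, which serves both branches of the pathway, stood at 4.55, 6.55 and 5.16 FPKM in KO_let-7g, 8.49, 13.4 and 13 in KO_siNr6a1, 6.63, 9.45 and 9.24 in KO_siCtrl and 7.76, 10.3 and 12.2 in WT_siCtrl. The KO_let-7g libraries were the lowest group, and the highest of them lay just below the lowest KO_siCtrl library. KO_let-7g was lower than KO_siNr6a1 in Fzd2 (log2 change -0.96 ± 0.21, adjusted p = 0.00365). The fall in KO_let-7g against KO_siCtrl passed narrowly (log2 change -0.55 ± 0.21, adjusted p = 0.0473). It was lost in 9 of 24 settings, among them without any filter (adjusted p = 0.0934), with upper quartiles (0.0506), and without KO_let-7g replicate 0 (0.148) or 2 (0.107), KO_siNr6a1 replicate 1 (0.0507) or 2 (0.0559), KO_siCtrl replicate 1 (0.137) or 2 (0.128), or WT_siCtrl replicate 1 (0.0596). With the block it was kept (adjusted p = 0.00112), and Fzd2 was then also called higher in KO_siNr6a1 against KO_siCtrl (0.41, adjusted p = 0.00879, against 0.161 without the block). Fzd7, a receptor common in stem cells, had the highest mean level of the Frizzled genes in the 3 groups without Dicer1. It averaged 13.4 ± 1.61 FPKM in KO_let-7g, 12.7 ± 1.14 in KO_siNr6a1, 12.9 ± 0.963 in KO_siCtrl and 11 ± 1.13 in WT_siCtrl and was called in none of the 6 comparisons. With the block it was called higher in KO_siCtrl (0.22, adjusted p = 0.0134) and KO_let-7g (0.26, 0.00505) against WT_siCtrl, the last also without WT_siCtrl replicate 1 (0.0451).

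Below the filter, Fzd3, a receptor needed for axon guidance, stood at 0.178 ± 0.0273 FPKM in KO_let-7g, 0.108 ± 0.0112 in KO_siNr6a1, 0.0821 ± 0.0221 in KO_siCtrl and 0.668 ± 0.0793 in WT_siCtrl, and Fzd9, a receptor with a role in bone formation, at 0.461 ± 0.161 FPKM in KO_let-7g, 0.688 ± 0.196 in KO_siNr6a1, 0.3 ± 0.154 in KO_siCtrl and 0.733 ± 0.227 in WT_siCtrl. With the filter at 0.3 FPKM, Fzd9 fell in KO_siCtrl against WT_siCtrl (log2 change -0.41 ± 0.13, adjusted p = 0.0197). It was not called in KO_let-7g (adjusted p = 0.134) or KO_siNr6a1 (0.834) against WT_siCtrl, where 57% and 53.3% of genes were called. Fzd3 met that filter through the 3 WT_siCtrl libraries alone, all others being at most 0.209 FPKM, so it had to differ from them. Its log2 changes against WT_siCtrl, given as a description, were -0.50 in KO_let-7g, -0.59 in KO_siNr6a1 and -0.62 in KO_siCtrl. Over all 10 Frizzled genes the summed level was 45.1 ± 3.57 FPKM in KO_let-7g, 46.8 ± 5.2 in KO_siNr6a1, 45.9 ± 2.38 in KO_siCtrl and 56 ± 7.9 in WT_siCtrl (mean ± SD, n = 3 each). Of that sum Fzd6 took 26.2 ± 4.63% in KO_siCtrl and 5.13 ± 1.46% in WT_siCtrl, and Fzd1 took 10.8 ± 0.633% in KO_siCtrl and 24.8 ± 1.12% in WT_siCtrl.

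Of the co-receptors, Lrp6 was higher without Dicer1 and Lrp5 was lower with let-7g. Lrp6 stood at 36.2, 33.9 and 26 FPKM in KO_let-7g, 42.8, 33.3 and 34.1 in KO_siNr6a1, 39.4, 34.6 and 30.4 in KO_siCtrl and 27.3, 20.5 and 18.4 in WT_siCtrl. Only the KO_let-7g library numbered 2 fell below a WT_siCtrl library, the one numbered 0. Lrp6 rose in KO_siCtrl against WT_siCtrl (log2 change 0.65 ± 0.17, adjusted p = 0.00716) and was not called in KO_let-7g (-0.12, adjusted p = 0.592) or KO_siNr6a1 (0.07, adjusted p = 0.779) against KO_siCtrl. Its 3′ UTR holds the 7-base let-7 match shown above. Lrp5, whose loss is known to lower bone mass, stood at 14.4, 15 and 12.5 FPKM in KO_let-7g, 15.6, 19.8 and 17.2 in KO_siNr6a1, 20.3, 22.7 and 23 in KO_siCtrl and 22.6, 23.9 and 33.2 in WT_siCtrl. The KO_let-7g libraries were the 3 lowest, and those of KO_siCtrl and WT_siCtrl overlapped. Lrp5 fell in KO_let-7g against KO_siCtrl (log2 change -0.62 ± 0.14, adjusted p = 0.00414), and the difference of -0.31 in KO_siNr6a1 did not pass (adjusted p = 0.118), except with library weights (0.0205) and without WT_siCtrl replicate 2 (0.0394). Set against each other, the treatments differed in Lrp5 by -0.31, which was not called (adjusted p = 0.103). It was called in 4 alternative settings, which were quantiles (-0.40, adjusted p = 0.0353), medians of ratios (-0.46, 0.0185), library weights (-0.26, 0.021) and the omission of WT_siCtrl replicate 2 (-0.31, 0.033).

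Sfrp2 had the largest fold change of all tested members between KO_siCtrl and WT_siCtrl. It encodes a secreted Wnt-binding protein made by fibroblasts and marrow stroma, and it stood at 61.7, 79.5 and 48.9 FPKM in KO_let-7g, 122, 222 and 127 in KO_siNr6a1, 23.4, 50.6 and 26.9 in KO_siCtrl and 1333, 1717 and 1675 in WT_siCtrl. The lowest WT_siCtrl library was far above every library without Dicer1, the KO_siNr6a1 libraries came next, and the ranges of KO_let-7g and KO_siCtrl overlapped narrowly. Sfrp2 fell in KO_siCtrl against WT_siCtrl (log2 change -5.58 ± 0.30, adjusted p = 8.52e-08). It rose against KO_siCtrl in KO_siNr6a1 (log2 change 2.21 ± 0.30, adjusted p = 0.000383) and in KO_let-7g (log2 change 0.95 ± 0.30, adjusted p = 0.0235), and KO_let-7g was lower than KO_siNr6a1 (log2 change -1.27 ± 0.30, adjusted p = 0.00626). The rise in KO_let-7g was lost with no filter (adjusted p = 0.0554) and without KO_let-7g replicate 0 (0.0541) or 1 (0.0886) or KO_siCtrl replicate 0 (0.0929) or 2 (0.0766). Both treated groups remained lower than WT_siCtrl (KO_let-7g log2 change -4.63 ± 0.30, adjusted p = 3.75e-07, and KO_siNr6a1 log2 change -3.36 ± 0.30, adjusted p = 3.92e-06). Of the summed FPKM of the 8 antagonists, Sfrp2 held 50.7 ± 0.684% in KO_let-7g, 49.2 ± 6.13% in KO_siNr6a1, 31.1 ± 8.07% in KO_siCtrl and 95.1 ± 0.534% in WT_siCtrl (mean ± SD, n = 3 each). Dkk3 held 27 ± 2.65%, 40.7 ± 5.61%, 59 ± 9.17% and 4.01 ± 0.554% of that sum in the same order, so the Sfrp2 share also depends on Dkk3. The summed levels of osteoblast and of adipocyte markers were likewise highest in WT_siCtrl. Most of these sums there came from Alpl (336 to 668 FPKM) and Fabp4 (245 to 337). The summed level of 5 osteoblast markers was 37.8 to 73 FPKM in KO_let-7g, 59.6 to 118 in KO_siNr6a1, 42.4 to 71.5 in KO_siCtrl and 421 to 839 in WT_siCtrl, and in that order of groups 2, 2, 2 and 5 of the 5 reached 1 FPKM in all libraries. The summed level of 4 adipocyte markers was 28.9 to 33.2 FPKM in KO_let-7g, 27.9 to 39.3 in KO_siNr6a1, 19.9 to 28.5 in KO_siCtrl and 284 to 394 in WT_siCtrl, and in that order 2, 1, 1 and 2 of the 4 reached 1 FPKM in all libraries, with the adipsin gene Cfd under 0.14 FPKM in every library. The part of these lineages in the genotype difference of Sfrp2 and of the other members was not tested.

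Sfrp1 and Sfrp4 followed other patterns than Sfrp2. Sfrp1, an antagonist whose loss raises bone mass in mice, stood at 18.2, 29.2 and 19.9 FPKM in KO_let-7g, 20.7, 34.5 and 32.1 in KO_siNr6a1, 6.86, 12 and 7.19 in KO_siCtrl and 7.94, 18.2 and 10.1 in WT_siCtrl. Every treated library was above every KO_siCtrl library, and within each group the library numbered 1 was the highest and the library numbered 0 the lowest. Sfrp1 rose against KO_siCtrl in KO_let-7g (log2 change 1.28 ± 0.31, adjusted p = 0.00563) and in KO_siNr6a1 (log2 change 1.65 ± 0.31, adjusted p = 0.0026). The difference of -0.39 in KO_siCtrl against WT_siCtrl (adjusted p = 0.302) and that of -0.36 in KO_let-7g against KO_siNr6a1 (0.378) did not pass, but both did with the replicate number as a block (adjusted p = 0.0211 and 0.0372). Sfrp1 exceeded WT_siCtrl in KO_siNr6a1 (log2 change 1.25 ± 0.31, adjusted p = 0.00507) and in KO_let-7g (log2 change 0.89 ± 0.31, adjusted p = 0.0277), the last a call lost in 6 of 24 settings, among them library weights (adjusted p = 0.164), no filter (0.0597), medians of ratios (0.0513), and without KO_let-7g replicate 1 (0.105) or WT_siCtrl replicate 0 (0.104) or 2 (0.0794). Sfrp4, an antagonist of bone and connective tissue, stood at 5.09, 5.05 and 5.21 FPKM in KO_let-7g, 2.24, 3.19 and 1.96 in KO_siNr6a1, 1.8, 2.01 and 1.7 in KO_siCtrl and 3.14, 2.27 and 3.13 in WT_siCtrl. The 3 KO_let-7g libraries were close to one another and above all others. Sfrp4 rose in KO_let-7g against KO_siCtrl (log2 change 1.11 ± 0.14, adjusted p = 7.76e-05) and was higher in KO_let-7g than in KO_siNr6a1 (log2 change 0.84 ± 0.14, adjusted p = 0.000723). It fell in KO_siCtrl against WT_siCtrl (log2 change -0.43 ± 0.14, adjusted p = 0.0187), a call lost with quantiles (adjusted p = 0.0508), with library weights (0.0956) and without KO_siCtrl replicate 2 (0.0576) or WT_siCtrl replicate 0 (0.0616) or 2 (0.0643).

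Dkk3 moved in opposite directions under the treatments. It is a divergent member of the Dickkopf family that, unlike Dkk1, is not known as a direct blocker of Lrp5 and Lrp6. Its level was 36, 41.7 and 24 FPKM in KO_let-7g, 117, 136 and 123 in KO_siNr6a1, 66.1, 62.5 and 55.3 in KO_siCtrl and 65.4, 68.3 and 63.1 in WT_siCtrl. The KO_let-7g libraries were all below, and the KO_siNr6a1 libraries all above, the 6 control siRNA libraries of both genotypes, which lay together. Dkk3 fell in KO_let-7g against KO_siCtrl (log2 change -0.87 ± 0.16, adjusted p = 0.00121), rose in KO_siNr6a1 against KO_siCtrl (log2 change 1.02 ± 0.16, adjusted p = 0.000948) and was lower in KO_let-7g than in KO_siNr6a1 (log2 change -1.89 ± 0.16, adjusted p = 1.75e-05). Between the genotypes under the control siRNA the difference was -0.10 (adjusted p = 0.628). Dkk3 was the only one of the 6 members called lower in KO_let-7g against KO_siCtrl (Dkk3, Fzd2, Lrp5, Wnt5b, Wnt7b and Wnt10b) whose searched 3′ UTR held a let-7 match. That is 16.7% of them, the same share as the 3 of 18 members tested that held one (Dkk3, Fzd4 and Lrp6), and none of the 3 called higher did. Without any filter, where 27.9% of genes were called, Wnt10a was also lower in KO_let-7g than in KO_siCtrl (log2 change -0.21, adjusted p = 0.0247), while Fzd3 (log2 change 0.12, adjusted p = 0.02) and Wnt9a (log2 change 0.33, adjusted p = 0.00229) were higher, and all 3 hold a match. The Fzd3 call was lost with the filter at 0.3 FPKM, where the same change had an adjusted p of 0.128. In KO_siNr6a1 against KO_siCtrl, again without any filter and with 16.5% of genes called, Wnt10a was lower too (log2 change -0.22, adjusted p = 0.0324). Wnt9a was again higher there (0.24, adjusted p = 0.0189), and Fzd3 was not called (adjusted p = 0.597). Between the treatments Wnt10a was not called (0.01, adjusted p = 0.99). The classical inhibitors Dkk1, Dkk2 and Dkk4 were at most 0.0501 FPKM in any library.

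**Figure D4:**
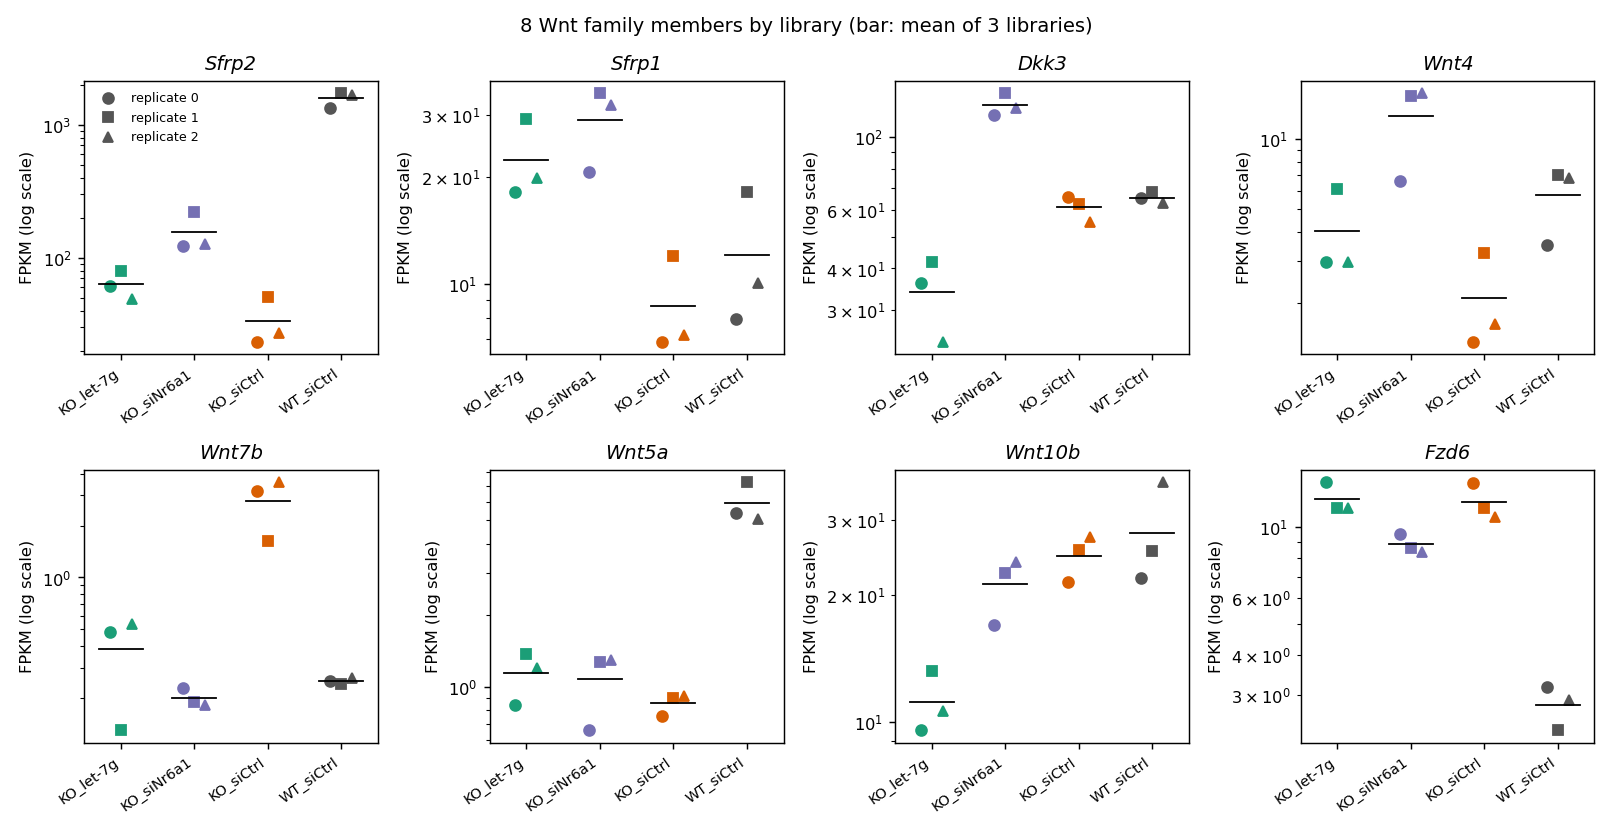
FPKM (log scale) of 8 members, with 1 point per library, marker shape for the replicate number and a bar at the mean of 3 libraries. The scale differs between panels. Dkk3 lies highest in KO_siNr6a1 and lowest in KO_let-7g, Sfrp2 and Wnt5a are highest in WT_siCtrl, and Wnt7b is above 1 FPKM in KO_siCtrl alone.

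Axin2, the feedback inhibitor commonly read as a marker of canonical signalling, was low in all groups and lowest without Dicer1. It stood at 0.0845, 0.103 and 0.0385 FPKM in KO_let-7g, 0.0557, 0.0965 and 0.0359 in KO_siNr6a1, 0.0275, 0.0631 and 0.039 in KO_siCtrl and 0.206, 0.436 and 0.441 in WT_siCtrl. Every WT_siCtrl library was above every library without Dicer1, among which the 3 groups overlapped. With no filter on low values, over 19916 genes of which 35.9% were called, Axin2 fell in KO_siCtrl against WT_siCtrl (log2 change -0.38 ± 0.06, adjusted p = 0.000914). It was not called in KO_let-7g (0.04, adjusted p = 0.698) or KO_siNr6a1 (0.03, adjusted p = 0.893) against KO_siCtrl, where 27.9% and 16.5% of genes were. Values this far below 1 FPKM rest on few reads, and a pseudocount of 1 shrinks their fold changes.

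**Figure D5:**
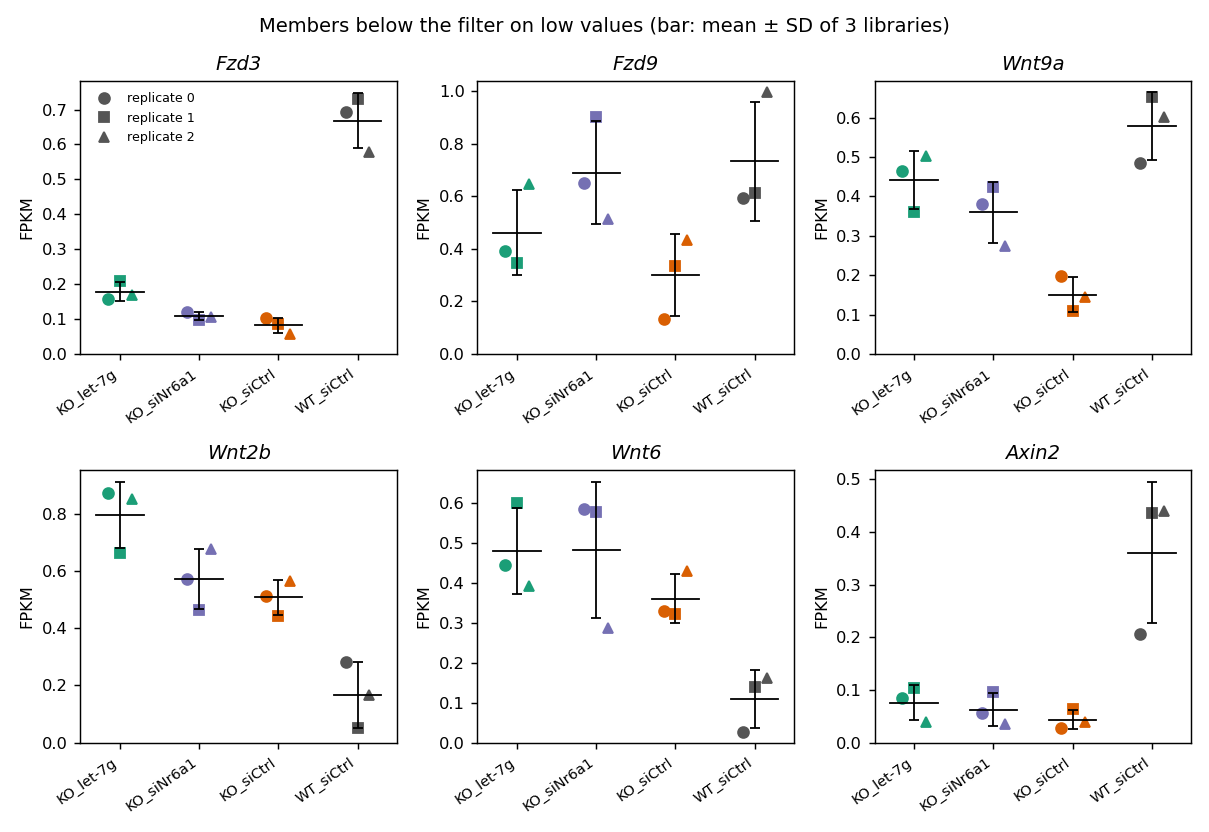
FPKM (linear scale, different in each panel) of 6 members below the filter, with 1 point per library and a bar with its whisker at the mean ± SD of 3 libraries. Fzd3 and Axin2 are highest in WT_siCtrl, and Wnt2b and Wnt6 are lowest there.

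Against WT_siCtrl, the treated groups had calls that KO_siCtrl shared and calls that it did not. Dkk3 (lower in KO_let-7g, higher in KO_siNr6a1), Lrp5 and Sfrp1 were called in both treated groups, and Fzd2 and Wnt10b in KO_let-7g. As reported, KO_siCtrl had none of these 5 calls against WT_siCtrl. Sfrp1 was called there with the replicate block (adjusted p = 0.0211) and with library weights (0.0311). A call beside a missing call is no test between groups. Set directly against KO_siCtrl, the treated groups differed by a call in each case but Lrp5 in KO_siNr6a1, whose change of -0.31 stayed uncalled. In KO_let-7g the calls not yet given were Dkk3 (log2 change -0.97 ± 0.16, adjusted p = 0.00038), Fzd1 (-1.09), Fzd2 (-0.78), Fzd4 (-0.56), Fzd5 (-0.82), Fzd8 (-1.24), Lrp5 (-0.86) and Wnt5a (-1.69) on the lower side. On the higher side were Fzd6 (1.80), Lrp6 (0.52), Sfrp4 (0.68) and Wnt5b (0.73), with adjusted p at most 0.0197 for these 12. Lrp6 there lost its call with quantiles (adjusted p = 0.0584), with medians of ratios (0.0839) and without KO_let-7g replicate 0 (0.0759) or 1 (0.0618) or WT_siCtrl replicate 1 (0.0607) or 2 (0.0773). In KO_siNr6a1 they were Fzd1 (-1.28), Fzd4 (-0.73), Fzd5 (-0.66), Fzd8 (-1.26), Lrp5 (-0.56) and Wnt5a (-1.74) on the lower side and Dkk3 (0.92), Fzd6 (1.38), Lrp6 (0.72) and Wnt5b (0.92) on the higher side, with adjusted p at most 0.00604. Wnt4 was also higher in KO_siNr6a1 than in WT_siCtrl (log2 change 0.95 ± 0.37, adjusted p = 0.0463), a call that 15 of 24 settings lost, including the omission of any one of 9 libraries: KO_let-7g replicate 0 or 2, KO_siNr6a1 replicate 1 or 2, KO_siCtrl replicate 0 or 2, or WT_siCtrl replicate 0, 1 or 2 (adjusted p up to 0.158). In these comparisons siRNA and genotype both differ.

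Genes around the family were counted in 4 lists, which share some genes, such as Tcf7, Lef1 and Ptk7. Among 16 tested genes of Wnt secretion, co-reception and secreted modulation, 4 rose and 8 fell in KO_siCtrl against WT_siCtrl (median log2 fold change -0.46, against 0.04 over all genes), 2 and 6 in KO_let-7g against KO_siCtrl (-0.18 against 0.08), 3 and 3 in KO_siNr6a1 against KO_siCtrl (-0.06 against -0.06) and 0 and 4 in KO_let-7g against KO_siNr6a1 (-0.13 against 0.12). In the order of these comparisons, 75%, 50%, 37.5% and 25% of the list were called, against 54.3%, 45.6%, 29.4% and 40.9% of all genes tested. Those with the smallest adjusted p included the Sfrp family antagonist Frzb (0.0638 ± 0.0729 against 5.44 ± 1.6 FPKM, log2 change -2.57), the Wnt5a receptor Ror2 (1 ± 0.236 against 7.09 ± 1.27 FPKM, log2 change -2.01) and the glypican Gpc4 (22.1 ± 2.29 against 49.1 ± 3.55 FPKM, log2 change -1.12), all lower in KO_siCtrl than in WT_siCtrl. The symbol rule did not match Frzb, so it is not counted among the members or in the sums of the antagonists. Frzb entered the test through the WT_siCtrl libraries alone (at most 0.432 FPKM in any other), so its call describes a gene that had to differ. Lgr4, a receptor of the R-spondins, and Gpc4 fell in KO_let-7g (Lgr4 14 ± 3.27 against 45.1 ± 6.76 FPKM, log2 change -1.63, and Gpc4 13.6 ± 1.24 against 22.1 ± 2.29 FPKM, log2 change -0.66), and the Dkk co-receptor Kremen1 fell in KO_let-7g (8.69 ± 0.663 against 14.8 ± 0.479 FPKM, log2 change -0.70) and in KO_siNr6a1 (7.09 ± 0.335 against 14.8 ± 0.479 FPKM, log2 change -0.96). The polarity co-receptor Ptk7 rose (42.6 ± 3.26 against 26.1 ± 1.16 FPKM, log2 change 0.68) and the R-spondin Rspo3 fell (9.06 ± 0.663 against 14.3 ± 1.39 FPKM, log2 change -0.61) in KO_siNr6a1. Lower in KO_let-7g than in KO_siNr6a1 were Lgr4, Lgr6 (8.43 ± 1.66 against 17.2 ± 0.511 FPKM, log2 change -0.97) and Rspo2 (6.61 ± 3.41 against 19.2 ± 6.34 FPKM, log2 change -1.45).

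Among 30 tested genes of the intracellular beta-catenin pathway, 5 rose and 9 fell in KO_siCtrl against WT_siCtrl (median log2 fold change 0.10, against 0.04 over all genes), 5 and 9 in KO_let-7g against KO_siCtrl (-0.15 against 0.08), 6 and 3 in KO_siNr6a1 against KO_siCtrl (-0.09 against -0.06) and 5 and 11 in KO_let-7g against KO_siNr6a1 (-0.07 against 0.12). The called shares were 46.7%, 46.7%, 30% and 53.3% in that order, against 54.3%, 45.6%, 29.4% and 40.9% of all genes. Ctnnb1, the beta-catenin gene itself, fell in KO_siCtrl against WT_siCtrl (92.7 ± 10.8 against 241 ± 34.5 FPKM, log2 change -1.37) and rose against KO_siCtrl in KO_let-7g (193 ± 14.1 against 92.7 ± 10.8 FPKM, log2 change 1.05) and in KO_siNr6a1 (213 ± 7.57 against 92.7 ± 10.8 FPKM, log2 change 1.20). The co-repressor Tle4 (0.33 ± 0.129 against 4.08 ± 0.39 FPKM, log2 change -1.93) and the dishevelled-binding inhibitor Nkd2 (0.469 ± 0.109 against 8.92 ± 2.03 FPKM, log2 change -2.74) were also lower in KO_siCtrl than in WT_siCtrl. Both passed the filter through the WT_siCtrl libraries alone, with at most 0.869 and 0.963 FPKM in any other, and so had to differ. The kinase Csnk1d fell in KO_let-7g (36.7 ± 1.08 against 73.9 ± 6.39 FPKM, log2 change -0.99), and Cby1, a beta-catenin binding inhibitor, rose in KO_let-7g (42.1 ± 3.64 against 11 ± 1.72 FPKM, log2 change 1.85) and in KO_siNr6a1 (23.4 ± 2.01 against 11 ± 1.72 FPKM, log2 change 1.03). Lower in KO_let-7g than in KO_siNr6a1 were the transcription factor Tcf7l1 (8.01 ± 0.67 against 26.2 ± 1.24 FPKM, log2 change -1.60), Csnk1d (36.7 ± 1.08 against 70.2 ± 1.83 FPKM, log2 change -0.92) and the co-activator Bcl9 (5.28 ± 0.776 against 10.8 ± 1.02 FPKM, log2 change -0.91).

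Among 13 tested genes listed as beta-catenin targets, 4 rose and 5 fell in KO_siCtrl against WT_siCtrl (median log2 fold change -0.05, against 0.04 over all genes), 4 and 2 in KO_let-7g against KO_siCtrl (0.16 against 0.08), 4 and 2 in KO_siNr6a1 against KO_siCtrl (0.28 against -0.06) and 1 and 3 in KO_let-7g against KO_siNr6a1 (-0.17 against 0.12). Called genes made up 69.2%, 46.2%, 46.2% and 30.8% of the list in turn, against 54.3%, 45.6%, 29.4% and 40.9% of all genes. Many of them answer to other signals as well. The Wnt inhibitor Apcdd1 (3.1 ± 0.0752 against 22.4 ± 2.65 FPKM, log2 change -2.50) and the growth factor Bmp4 (23.2 ± 3.5 against 93.1 ± 18.8 FPKM, log2 change -1.95) fell in KO_siCtrl against WT_siCtrl, while the cyclin Ccnd1 rose (146 ± 22.8 against 30.6 ± 3.82 FPKM, log2 change 2.21). Against KO_siCtrl, Ccnd1 fell in KO_let-7g (67.4 ± 10.7 against 146 ± 22.8 FPKM, log2 change -1.10) and in KO_siNr6a1 (mean of 78.6 FPKM, log2 change -0.90). The transcription factor Tcf7 rose in KO_let-7g (11.2 ± 0.639 against 4.91 ± 0.34 FPKM, log2 change 1.04) and in KO_siNr6a1 (11.9 ± 1.93 against 4.91 ± 0.34 FPKM, log2 change 1.12). Fst, the activin-binding follistatin gene, rose in KO_let-7g (6.66 ± 0.429 against 2.27 ± 0.629 FPKM, log2 change 1.24), and the transcription factors Sox9 (32.8 ± 6.65 against 16.2 ± 2.72 FPKM, log2 change 0.97) and Lef1 (2.13 ± 0.784 against 0.684 ± 0.159 FPKM, log2 change 0.87) rose in KO_siNr6a1. KO_let-7g was lower than KO_siNr6a1 in Lef1 (0.468 ± 0.13 against 2.13 ± 0.784 FPKM, log2 change -1.07) and Sox9 (18.9 ± 1.94 against 32.8 ± 6.65 FPKM, log2 change -0.75) and higher in Fst (6.66 ± 0.429 against 3.37 ± 0.372 FPKM, log2 change 0.81).

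Among 22 tested genes of the planar polarity and calcium branch, 5 rose and 8 fell in KO_siCtrl against WT_siCtrl (median log2 fold change -0.16, against 0.04 over all genes), 9 and 3 in KO_let-7g against KO_siCtrl (0.15 against 0.08), 6 and 2 in KO_siNr6a1 against KO_siCtrl (0.11 against -0.06) and 1 and 4 in KO_let-7g against KO_siNr6a1 (-0.02 against 0.12). Of the list, 59.1%, 54.5%, 36.4% and 22.7% were called in that order, against 54.3%, 45.6%, 29.4% and 40.9% of all genes. The formin-related Daam2 rose in KO_siCtrl against WT_siCtrl (41.6 ± 3.74 against 1.87 ± 0.426 FPKM, log2 change 3.90), while the phospholipase Plcb3 fell (20.5 ± 0.462 against 45.5 ± 4.3 FPKM, log2 change -1.11). The polarity gene Prickle2 was lower as well (0.0135 ± 0.00745 against 1.88 ± 0.194 FPKM, log2 change -1.50), but it was tested only because of its WT_siCtrl libraries (at most 0.0883 FPKM in any other), so it had to differ. In KO_let-7g the kinase Nlk fell (10.2 ± 0.891 against 23.9 ± 1.61 FPKM, log2 change -1.15) and the GTPase Rac1 (240.0 ± 14.6 against 108 ± 5.8 FPKM, log2 change 1.15) and Plcb3 (34.5 ± 1.03 against 20.5 ± 0.462 FPKM, log2 change 0.72) rose. In KO_siNr6a1, Rac1 (251 ± 8.84 against 108 ± 5.8 FPKM, log2 change 1.21) and the GTPase Rhoa (173 ± 3.06 against 102 ± 7.45 FPKM, log2 change 0.76) rose and the calcium-dependent kinase Camk2g fell (14.4 ± 0.268 against 22.6 ± 1.14 FPKM, log2 change -0.61). Between the treatments, KO_let-7g was lower in Nlk (10.2 ± 0.891 against 19.1 ± 0.786 FPKM, log2 change -0.84) and Daam2 (20.1 ± 3.01 against 42.5 ± 1.67 FPKM, log2 change -1.05) and higher in Plcb3 (34.5 ± 1.03 against 25.5 ± 0.192 FPKM, log2 change 0.42). The lists were put together by name with earlier results of these data known, and their counts describe them only.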

How the data were processed

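RNA-seq levels were deposited as FPKM per gene and library, made by the authors with TopHat 1.2.0 and Cufflinks 1.0.3 on mouse build mm9, per the submitters' processing notes. FPKM is scaled by transcript length and by mapped fragments. Reads per library and the use of strand are not given in the sources used here. Relative depth was read from the smallest steps of the FPKM of genes below 0.3 FPKM, so precision is known only in relative terms.

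All 21881 genes of the 12 libraries were read as deposited. The 11801 genes that reached 1 FPKM in 3 or more libraries were fitted as log2(FPKM + 1) with limma 3.58.1 in R 4.3.3, with 1 coefficient per group over all 12 libraries, a variance trend and 8 residual degrees of freedom. P-values are two-sided, adjusted by Benjamini-Hochberg over those genes, and called under 0.05. On this scale the changes of low genes come out too small. In a sentence with ±, fold changes carry the SE and levels the SD (n = 3). The fit was tested on simulated data.

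The members and lists were chosen with earlier results of these data known. Members that passed the filter and were called in a comparison have their values in every library given. From each list, the 3 called genes with the smallest adjusted p are named in 4 comparisons. Ccnd1 in KO_siNr6a1 is named beyond those 3. A gene named under a single treatment can be called under the other too. Against KO_siCtrl this held, in the same direction, for Camk2g, Gpc4, Nlk, Plcb3, Ptk7, Rhoa and Rspo3. The lists are not described in the comparisons of a treated group with WT_siCtrl. Libraries with the same replicate number deviated together. The correlation of their deviations from the group means was 0.0915 to 0.465 over 18 pairs, against -0.36 to 0.193 for other pairs, and 12 of 12 libraries correlated best with their own number. The pairing comes from the labels' replicate numbers and was taken to hold where all pairs of a comparison exceeded 0.1, which left out KO_siNr6a1 against WT_siCtrl. Where the pairing held, the fit with the number as a block is given where it changes a call. Alternatives were other pseudocounts, filters, scalings, variance settings, library weights, a fit on the compared groups alone and leaving out each library. 3′ UTRs and sites came from GENCODE M21 on GRCm38, and let-7g from RefSeq. The FPKM rest on mm9, and no coordinates were converted.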

Additional observations from a re-analysis of the deposited data

How the results depend on the processing

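Of 63 called log2 fold changes of members (18 members, 6 comparisons), 53 kept their call in every alternative setting run (up to 24) and 0 changed sign in any. Wnt7b, whose calls are among those kept, could be run in only 20 settings. It left the test whenever a KO_siCtrl library was left out and with a mean FPKM of at least 5, so its calls were not checked there. Those that lost a call are given with the result. Of 45 uncalled ones, 29 stayed uncalled throughout and 15 changed sign somewhere. The members called in KO_siCtrl against WT_siCtrl numbered 19 with no filter and 7 with a mean FPKM of at least 5, against 12 as reported, since the filters admit more or fewer members. With the replicate block the 6 comparisons, in the order of their first mention, had 14, 12, 8, 8, 16 and 15 members called, and every call reported without the block was kept, while the calls it added stand beside their results. In the last of them, KO_siNr6a1 against WT_siCtrl, the pairing did not hold, and the block there added Wnt10b (adjusted p = 0.0245) and Fzd7 (0.0221). Calls gained with library weights and not given above were Sfrp1 in KO_siCtrl against WT_siCtrl (adjusted p = 0.0311), Fzd2 (0.00741) and Fzd5 (0.0242) in KO_siNr6a1 against KO_siCtrl and Fzd4 in KO_let-7g against KO_siNr6a1 (0.00967). In that last comparison quantiles added Fzd5 (0.0325) and Wnt5b (0.0309), and medians of ratios Wnt5b (0.0356). Uncalled values that turned their sign were the following log2 fold changes. With quantile scaling they were, in KO_let-7g against KO_siCtrl, -0.10 for Fzd5, -0.0603 for Fzd6, -0.0263 for Fzd7 and -0.0014 for Wnt5a, in KO_siNr6a1 against KO_siCtrl 0.0071 for Fzd7, in KO_let-7g against KO_siNr6a1 -0.0666 for Fzd4, -0.0334 for Fzd7, -0.20 for Fzd8 and -0.20 for Wnt5a, and in KO_siNr6a1 against WT_siCtrl 0.0756 for Wnt7b. With medians of ratios they were, in KO_let-7g against KO_siCtrl, -0.0405 for Fzd5, -0.0567 for Fzd6 and -0.0447 for Fzd7, in KO_siNr6a1 against KO_siCtrl 0.04 for Fzd7, and in KO_let-7g against KO_siNr6a1 -0.0847 for Fzd7, -0.0915 for Fzd8 and -0.0317 for Wnt5a. Upper quartiles gave 0.0053 for Fzd7 in KO_siNr6a1 against KO_siCtrl. Library weights gave, in the same comparison, -0.0245 for Fzd4, 0.0188 for Fzd7 and -0.0613 for Lrp6, and in KO_let-7g against KO_siNr6a1 -0.11 for Wnt5a. Leaving out 1 library at a time gave ranges across 0 in KO_siCtrl against WT_siCtrl for Wnt10b (-0.301 to 0.0606), in KO_let-7g against KO_siCtrl for Fzd6 (-0.0528 to 0.124), Fzd7 (-0.0476 to 0.0894) and Lrp6 (-0.213 to 0.0177), in KO_siNr6a1 against KO_siCtrl for Fzd1 (-0.0362 to 0.126), Fzd4 (-0.0134 to 0.118), Fzd7 (-0.0811 to 0.0398) and Lrp6 (-0.0374 to 0.166), and in KO_let-7g against KO_siNr6a1 for Fzd7 (-0.025 to 0.123), Fzd8 (-0.122 to 0.187) and Wnt5a (-0.103 to 0.157). The cause of these sign changes was not tested. Members below 1 FPKM rest on few reads, and without read numbers their counting error cannot be given.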

Other observations

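Some members followed the replicate number in all 4 groups. The library numbered 0 was the lowest of its group in every group for Fzd1, Fzd2, Sfrp1 and Wnt10b, which is 22.2% of the 18 members tested, against 12.9% of all 11801 genes. The library numbered 1 was the highest in every group for Fzd7, Fzd8, Sfrp1 and Sfrp2, again 22.2% of the members, against 6.22% of all genes. The library numbered 0 was the highest for Fzd4, Fzd6 and Lrp6 (16.7% of the members and 11.2% of all genes). The members at issue were chosen after their values were seen, and what the replicate number stands for is not given in the labels.

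Wnt10a, one of the ligands below 1 FPKM, stood at 0.0435, 0.0472 and 0.0784 FPKM in KO_let-7g, 0.0281, 0.0556 and 0.0648 in KO_siNr6a1, 0.0951, 0.242 and 0.343 in KO_siCtrl and 0, 0.0367 and 0 in WT_siCtrl. Every KO_siCtrl library was above every library of the other groups, as for Wnt7b, while the order of the other groups' means differed between the genes.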
